A study of Mus musculus with 12 samples.

Results

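The transcripts of activated mast cells were compared between cells that received siRNAs against both Zc3h12a and Zc3h12c (si12A+C, 3 samples) and cells that received siRNAs against Zc3h12c only (si12C, 3 samples), 6 of the 12 samples of the series. The comparison asks what siRNAs against Zc3h12a, which encodes Regnase-1, added in cells in which Zc3h12c, which encodes Regnase-3, was targeted in both groups. All samples were bone marrow-derived mast cells (BMMCs), grown from mouse bone marrow in interleukin-3 for at least 4 weeks. They were electroporated with siRNAs, cultured for 48 h, and then activated for 2 h through complexes of IgE and antigen. Cells came from 3 mice, each of which gave 1 sample to each group, and samples with the same replicate number were taken as cells of 1 mouse. The other 6 samples received siGLO, a fluorescent control siRNA, or si12A, the siRNAs against Zc3h12a alone. The mice were of C57BL/6 background, and marrow was taken at 6 to 8 weeks of age. The amount of each siRNA mixture in the combined transfection is not stated in the sources used here, so the groups may also differ in total siRNA or in the amount of si12C, which cannot be told apart from the added siRNAs.

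Regnase-1 and Regnase-3 are CCCH zinc finger proteins with an RNase domain, and they belong to a family of ribonucleases that degrade messenger RNAs. Regnase-1 is known to bind stem-loops in the 3' ends of transcripts of inflammatory genes, such as Il6, and to be cleaved by the protease Malt1 after activation of antigen receptors. Mast cells carry the high-affinity IgE receptor, and its crosslinking by antigen releases granules and induces cytokine transcripts.

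The siRNAs define the groups and are shown for that reason. Each gene was targeted by a mixture of 4 siRNAs of 19 bases, given here 5′ to 3′ in lower case as the supplementary list of the study has them, with no part singled out. The source does not say which strand is listed.
Zc3h12a siRNA 1: gcagagatcctgtcttaca
Zc3h12a siRNA 2: gagcgaggccacacagata
Zc3h12a siRNA 3: gaaatgtacgtatggaatc
Zc3h12a siRNA 4: gaaagggctggtgtatata
Zc3h12c siRNA 1: gcccaagtctggataattt
Zc3h12c siRNA 2: gcacttaagttaggttatt
Zc3h12c siRNA 3: gcactacacctttaagcaa
Zc3h12c siRNA 4: ggatattattccatgttga
The longest run of bases shared by any Zc3h12a siRNA with any Zc3h12c siRNA was 4, and 7 to 11 of the 19 bases were G or C in the Zc3h12a set against 6 to 8 in the Zc3h12c set. In the GRCm38.p6 assembly Zc3h12a lies on chromosome 4 (125118414 to 125127881) and Zc3h12c on chromosome 9 (52109569 to 52168730). The panel has no probe for either gene, so the depletion itself could not be checked in these counts.

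Transcripts were counted with a NanoString panel of 754 genes, in which a colour-coded probe is counted once for each RNA molecule it binds, without amplification. Over these genes the libraries held 552609 to 781649 counts in si12A+C and 527287 to 727472 in si12C. The background of a library was set at 2 SD over the mean of its negative control probes, and the 496 genes above it in at least 3 of the 12 libraries were tested. Of these, 342 passed in all 6 libraries compared here. The remaining 258 genes were not tested, and their highest count was 35. Depth differed between the libraries of a mouse: the total of si12A+C was 0.76 of that of si12C in mouse 1, 1.13 in mouse 2 and 1.22 in mouse 3. The same ratio of the geometric mean of the reference genes, some of which had few counts, was 0.55, 1.10 and 1.25. Counts were therefore scaled by the TMM method, and the values below are scaled counts. All 12 mast cell genes listed for this purpose were tested, among them those of the IgE receptor chains Fcer1a and Ms4a2 and of the receptor Kit.

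With TMM scaling, the tetraspanin gene Tspan8, the calreticulin gene Calr and 3 of 8 cell cycle genes tested were lower in si12A+C than in si12C. Pdzk1ip1, which encodes a small membrane protein, and the signalling genes Nfkbiz, Stat5a and Btg2 were higher. A gene was called when the adjusted p of edgeR's quasi-likelihood test, with the mouse as a block, was at most 0.05 and the log2 fold change lay beyond 0.5. By this rule 6 of 496 genes rose (1.21%) and 9 fell (1.81%) with TMM scaling. With scaling on all 20 reference genes of the panel or on the positive controls only 1 rose, Pdzk1ip1, and 1 fell, Tspan8. The scale of all 20 is a geometric mean that includes genes with few counts, such as Tbp. With scaling on the 6 well-detected reference genes, those with at least 100 counts in every library, 75 rose and 2 fell. All 15 moved the same way in the 3 mice, against 170 of all 496 genes (34.3%), and the 2 groups did not overlap in 10 of the 15, against 38 of 496 (7.66%). The 15 were called on these same values, so both shares follow largely from the selection and add no support. Most genes moved little: 320 of 496 had a log2 fold change within 0.25, and the median was 0.01 with quartiles of -0.19 and 0.17. Without the block the same test called 0 genes, with 15 genes at an unadjusted p of at most 0.05 against 97 with it, so each call below rests on the difference within a mouse. With the block but only the 6 libraries compared here in the fit, 2 genes rose, Nfkbiz and Pdzk1ip1, and 1 fell, Tspan8. The other calls therefore also rest on the siGLO and si12A libraries in the fit. With the block, DESeq2 called 7 higher and 8 lower, and limma-trend 5 and 6. Leaving out 1 of the 6 libraries at a time left 0 to 5 genes higher and 1 to 9 lower.

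**Figure D1:**
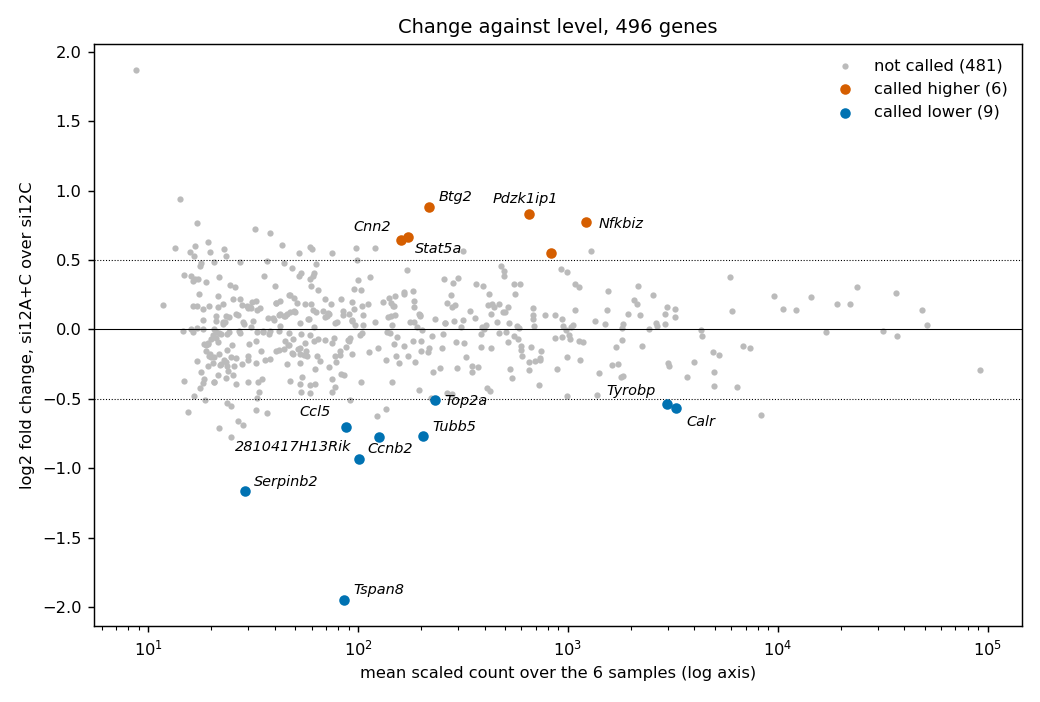
Log2 fold change of si12A+C over si12C for each of the 496 genes tested, against the mean scaled count over the 6 samples on a log axis. Dotted lines mark changes of 0.5 either way, the 6 genes called higher are orange and the 9 called lower are blue, and most points lie between the lines.

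Tspan8 changed most among the called genes. It encodes a tetraspanin, a membrane protein that organises other proteins at the cell surface. Its scaled counts were 76.5, 256 and 82.2 in si12C of mice 1, 2 and 3, and 24.4, 53.4 and 23.2 in si12A+C. Every si12A+C sample lay below every si12C sample, although cells of mouse 2 held most Tspan8 in both groups. The log2 fold change was -1.95 ± 0.18 (± SE throughout, adjusted p = 4.97e-05) or a 3.86-fold fall, with a 95% interval of -2.34 to -1.55. It kept its call in 18 of the 19 other settings that tested it, and lost it without the block (-2.04, adjusted p = 0.794). The scaled background of the si12A+C libraries of mice 1, 2 and 3 was 17.6, 27.7 and 14.4. The Tspan8 values of that group lie near it, so the size of the fall is uncertain.

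Of the 8 genes of the cell cycle list tested, 3 fell, against 9 of all 496 genes, and 0 rose. All 8 had a log2 fold change below 0, against 241 of 496, with a median of -0.58 against 0.01 over all genes. With DESeq2's size factors 3 were also called lower, but 1 with scaling on the well-detected reference genes, and 0 with scaling on all 20 reference genes or on the positive controls. Ccnb2 encodes cyclin B2, which drives entry into mitosis. It counted 127, 175 and 93.3 in si12C and 59.4, 100 and 49.6 in si12A+C of mice 1, 2 and 3. Each mouse was lower with both depletions, but the groups overlapped because mouse 2 counted highest in both. The fall was 0.93 ± 0.15 (adjusted p = 0.00784). 2810417H13Rik, named Pclaf in RefSeq, encodes a factor that binds the replication clamp PCNA. Its counts were 141, 201 and 132 in si12C and 74.2, 129 and 76.8 in si12A+C, with no overlap, and it fell by 0.77 ± 0.14 (adjusted p = 0.00936). Top2a encodes the topoisomerase that untangles DNA in dividing cells. It counted 270, 295 and 249 in si12C against 213, 222 and 146 in si12A+C. Its groups did not overlap either, and its fall of 0.51 ± 0.13 lay just inside both thresholds (adjusted p = 0.0495).

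The other 5 cell cycle genes did not pass the test, and 4 of them are named here. Kif20a, a kinesin of cell division, and Cdc20, an activator of the complex that ends mitosis, were lower in 3 of 3 mice, at -0.66 ± 0.23 and -0.38 ± 0.15. Mcm5, of the replicative helicase, was higher in mouse 1 and lower in the other 2, and Birc5, which encodes survivin, stood at -0.01 ± 0.22. The summed scaled count of the list was 762 to 1249 in si12C and 465 to 868 in si12A+C. In these bulk samples, fewer dividing cells and less of each transcript per cell cannot be told apart. The number of called members was 3 without mouse 1 (Mcm5 in place of Top2a), 2 without mouse 2 and 0 without mouse 3. It was 1 (Ccnb2) without the si12C library of mouse 1, 0 without that of mouse 3, and 2 without any other single library. The median of the list stayed between -0.70 and -0.53 in these and the other runs without a library.

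Promoters of cell cycle genes are known for repeated CCAAT boxes, bound by the factor NF-Y, and for the CHR element TTTGAA, through which the DREAM complex represses them outside division. Windows of 300 bases, 250 before and 50 after the annotated start, are shown for the 3 genes of the list that fell. They are RefSeq sequences of GRCm38.p6, read along the gene's strand, with CCAAT and TTTGAA on either strand in capitals, so that a reverse match reads ATTGG or TTCAAA. Ccnb2 is read from chr9:70421505-70421804 (minus strand), 2810417H13Rik from chr9:65890073-65890372 (plus strand) and Top2a from chr11:99024140-99024439 (minus strand).
Ccnb2: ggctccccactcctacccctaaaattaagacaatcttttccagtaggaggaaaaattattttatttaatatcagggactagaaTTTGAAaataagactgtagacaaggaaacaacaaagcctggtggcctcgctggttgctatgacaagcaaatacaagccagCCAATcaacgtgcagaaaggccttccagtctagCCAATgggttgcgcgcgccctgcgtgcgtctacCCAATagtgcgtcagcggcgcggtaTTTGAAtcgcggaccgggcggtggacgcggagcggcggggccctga
2810417H13Rik: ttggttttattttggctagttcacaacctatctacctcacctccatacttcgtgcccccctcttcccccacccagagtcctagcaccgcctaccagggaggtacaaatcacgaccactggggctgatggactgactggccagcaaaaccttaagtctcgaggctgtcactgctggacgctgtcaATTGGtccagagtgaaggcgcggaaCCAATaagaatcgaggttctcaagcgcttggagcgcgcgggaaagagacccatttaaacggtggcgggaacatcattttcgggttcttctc
Top2a: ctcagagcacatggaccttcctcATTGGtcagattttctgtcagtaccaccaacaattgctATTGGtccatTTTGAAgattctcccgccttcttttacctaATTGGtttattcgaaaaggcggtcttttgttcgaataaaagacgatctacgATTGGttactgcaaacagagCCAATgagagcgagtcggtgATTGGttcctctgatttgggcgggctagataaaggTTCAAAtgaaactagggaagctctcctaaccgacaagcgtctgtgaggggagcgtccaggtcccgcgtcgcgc
The Ccnb2 window held 3 matches of CCAAT and 2 of TTTGAA, that of Top2a 6 and 2, and that of 2810417H13Rik 2 and 0. A promoter sequence was found for 6 of the 8 tested cell cycle genes. Of these, 5 held CCAAT and 3 held both motifs, against 37.4% and 6.95% of the 32851 promoters of the table, and 3 held TTTGAA against 17.9%. These matches describe letters only, and no binding was measured.

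The other genes that fell encode a chaperone, a tubulin, a receptor adaptor, a chemokine and an inhibitor of plasminogen activators. Calr encodes calreticulin, a chaperone of the endoplasmic reticulum. It counted 4215, 3698 and 3763 in si12C and 2630, 2783 and 2479 in si12A+C, without overlap, and fell by 0.56 ± 0.10 (adjusted p = 0.00936). Tubb5, a beta tubulin that the panel uses as a reference gene, counted 271, 266 and 238 in si12C and 148, 149 and 154 in si12A+C. The 3 samples of a group lay close together and far from the other group, and the gene fell by 0.77 ± 0.15 (adjusted p = 0.0146). Tyrobp, the adaptor DAP12 that couples receptors to the kinase Syk, counted 2591, 4971 and 3011 in si12C and 1563, 3134 and 2561 in si12A+C. It was lower in each mouse with overlapping groups, by 0.54 ± 0.11 (adjusted p = 0.0149).

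Ccl5, a chemokine that attracts T cells and monocytes, counted 150, 101 and 76.7 in si12C and 74.2, 74.3 and 50.4 in si12A+C. The groups did not overlap, and the fall was 0.70 ± 0.17 (adjusted p = 0.0406). Against siGLO, the log2 fold change of Ccl5 was 0.72 in si12C and 0.02 in si12A+C, comparisons that share these libraries. Serpinb2, which encodes an inhibitor of plasminogen activators, counted 46.1, 27.1 and 46.2 in si12C and 15.9, 19.5 and 18.4 in si12A+C and fell by 1.17 ± 0.28 (adjusted p = 0.0406). These values lie near the background, which only 1 of 3 si12A+C samples passed, so the size of its fall is uncertain.

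**Figure D2:**
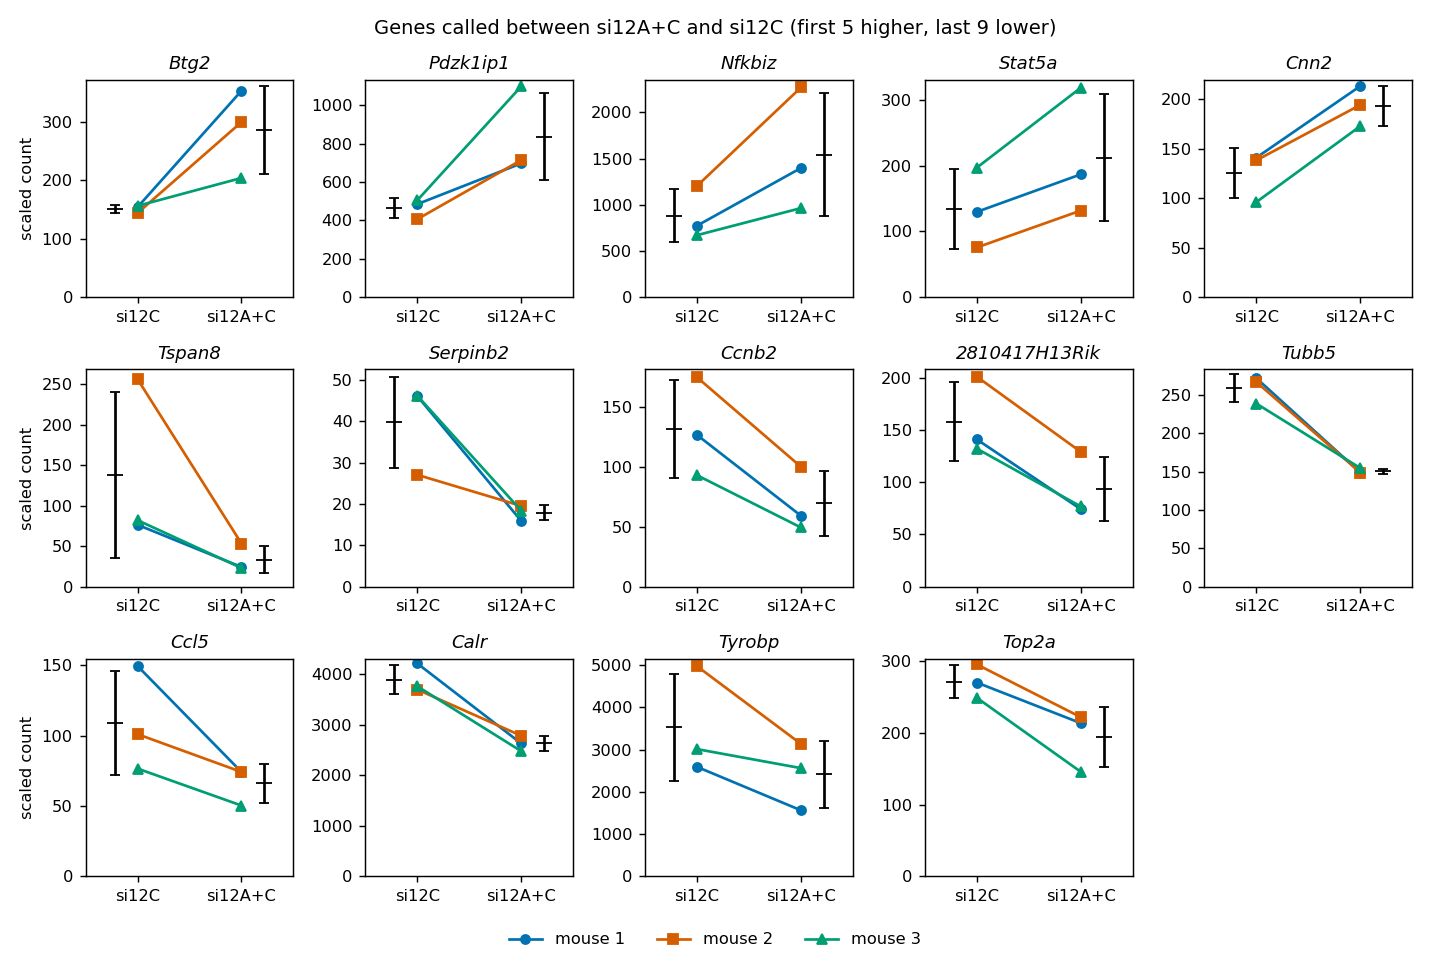
Scaled counts of 14 of the 15 called genes in si12C and si12A+C, with a linear axis from 0. Coloured points joined by a line are the 2 samples of 1 mouse, and the black bar beside each group gives the mean and its SD over 3 mice. All 3 lines slope the same way in every panel, and mouse 2 lies apart from the other mice for Tspan8 and Nfkbiz.

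The genes that rose include regulators of signalling, transcript control and the cytoskeleton, and 5 of the 6 are described here. Pdzk1ip1, which encodes the small membrane protein MAP17, had the smallest adjusted p among the 6. It counted 484, 406 and 504 in si12C and 697, 714 and 1098 in si12A+C of mice 1, 2 and 3. All 3 si12A+C samples were above all si12C samples, and the gene rose 1.78-fold (log2 0.83 ± 0.14, adjusted p = 0.0084). Cnn2, an actin-binding calponin, counted 141, 138 and 96.1 against 213, 194 and 173, without overlap, and rose by 0.65 ± 0.12 (adjusted p = 0.00936). Btg2, an early response gene whose product slows proliferation and recruits the deadenylase of messenger RNAs, counted 154, 144 and 156 in si12C and 353, 300 and 204 in si12A+C. Its si12C values were close together, while the rise was largest in mouse 1 and smallest in mouse 3 (0.88 ± 0.20, adjusted p = 0.0275).

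Nfkbiz encodes IκBζ, an inducible cofactor of NF-κB, and is a known Regnase-1 target. It counted 773, 1204 and 671 in si12C and 1398, 2270 and 964 in si12A+C. It was higher in each mouse, with overlapping groups since mouse 2 stood above the other mice, and rose by 0.77 ± 0.19 (adjusted p = 0.0406). Stat5a, a signal transducer of interleukin-3, counted 130, 75.5 and 197 in si12C and 187, 132 and 318 in si12A+C. It too rose in each mouse with overlapping groups, by 0.67 ± 0.14 (adjusted p = 0.016).

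Of 8 known Regnase-1 targets chosen from the panel, 5 were tested, while Il12b, Icos and Tnfrsf4 did not pass the background filter. The list is a selection: Tnf and Ptgs2, which Regnase-1 is also reported to regulate, stand in the cytokine and eicosanoid lists. Nfkbiz rose, 0 fell, and 4 lay above 0, with a median of 0.31. With scaling on the well-detected reference genes 3 of the 5 were called higher, Il2 and Il6 beside Nfkbiz. Il2, a growth factor of lymphocytes, counted 1049, 1430 and 634 in si12C and 985, 2413 and 1237 in si12A+C. It was higher in mice 2 and 3 and lower in mouse 1 (0.57 ± 0.25, adjusted p = 0.235). Il6 counted 19438, 23812 and 20273 against 22623, 32950 and 23658, higher in 3 of 3 mice (0.31 ± 0.12, adjusted p = 0.176), and Il1b stood at 0.19 ± 0.18. Ier3, an early response gene linked to survival, went the other way. It counted 6764, 9524 and 5753 in si12C and 5011, 5811 and 5314 in si12A+C, lower in each mouse, and missed both thresholds (-0.41 ± 0.11, adjusted p = 0.0621). Against siGLO its log2 fold change was 0.65 in si12C and 0.23 in si12A+C.

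Of the 34 cytokines tested, 0 passed with TMM scaling, whereas 9 were called higher, Tnf, Il2, Il6, Il13 and Il33 among them, with scaling on the well-detected reference genes. Tnf, the mast cell cytokine tumour necrosis factor, counted 6781, 13303 and 5406 in si12C and 6771, 18457 and 6583 in si12A+C. It was level in mouse 1 and higher in the other mice, and its log2 fold change of 0.24 ± 0.15 had a 95% interval of -0.09 to 0.56. Il13 stood at 0.19 ± 0.10, higher in 3 of 3 mice. Csf2, which encodes GM-CSF, was lowest among the cytokines, at 6744, 16520 and 4691 against 3369, 15428 and 2805 (-0.62 ± 0.19, adjusted p = 0.0872). It was lower in each mouse, least so in mouse 2. Hbegf, an EGF family growth factor, was lower in 3 of 3 mice (-0.47 ± 0.14), as was Mif (-0.46 ± 0.14). Il33, Pdgfa and Tnfsf10 were higher in 3 of 3 mice, at 0.61 ± 0.27, 0.41 ± 0.14 and 0.42 ± 0.14. Of 19 chemokines tested, Ccl5 fell and 0 rose with TMM scaling, whereas with scaling on the well-detected reference genes 4 were called higher and 0 lower, Ccl5 standing at -0.37 (adjusted p = 0.149). Ccl1, Ccl2, Ccl3 and Ccl4, whose probes were among the 10 with most counts, stood at 0.26 ± 0.12, 0.14 ± 0.10, 0.03 ± 0.10 and -0.02 ± 0.11, and none of those 10 genes was called.

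The lists of signal transducers held 1 call each, against 6 genes called higher of 496, of which 255 lay above 0. Of 10 genes of STAT signalling and its feedback, Stat5a rose, 0 fell and 8 lay above 0 (median 0.22). Stat6, the transducer of interleukin-4, counted 319, 168 and 294 in si12C and 390, 218 and 402 in si12A+C, higher in 3 of 3 mice (0.37 ± 0.11, adjusted p = 0.0773). Socs1, a feedback inhibitor, was lower in 3 of 3 (-0.27 ± 0.12). Of 17 genes of NF-κB signalling, Nfkbiz rose, 0 fell and 14 lay above 0 (median 0.19). Tnfaip3, which encodes the deubiquitinase A20, counted 260, 68.4 and 420 against 304, 88.6 and 562 (0.34 ± 0.11, adjusted p = 0.118), and the adaptor Traf1 stood at 0.41 ± 0.18, each higher in 3 of 3 mice. Of 27 early activation genes, Btg2 rose, 0 fell, and the median was 0.04. With scaling on the well-detected reference genes 3 STAT, 8 NF-κB and 8 early activation genes were called higher, against 75 of 496. Myc, the growth-promoting transcription factor, fell within the fold limit, from 1012, 538 and 941 to 773, 409 and 709 (-0.40 ± 0.09, adjusted p = 0.0321).

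**Figure D3:**
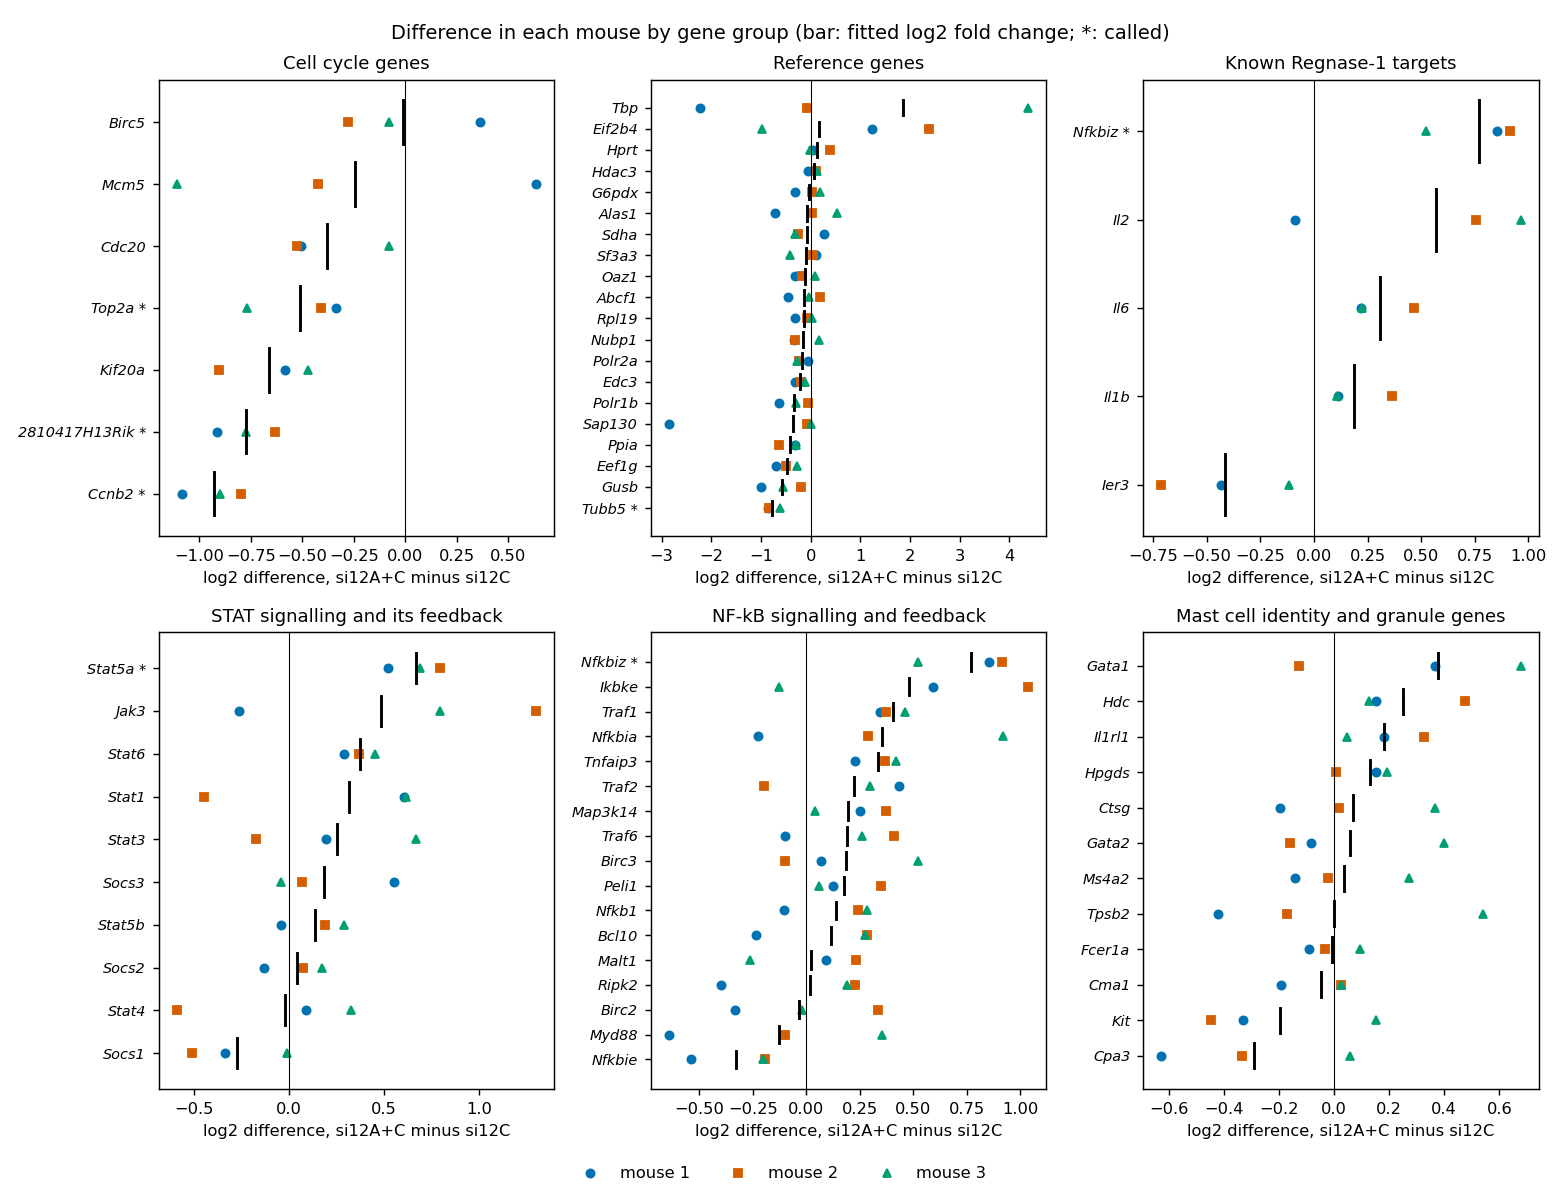
Log2 difference of si12A+C minus si12C in each mouse (points) for the tested genes of 6 groups, computed on scaled counts plus 1, with the fitted log2 fold change as a black bar and called genes starred; the x axes differ between panels. The fitted values of the 7 cell cycle genes drawn, of 8 tested, lie below 0, 14 of 17 NF-κB genes lie above, and the mast cell genes lie around 0.

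Of 12 genes of mast cell identity tested, 0 passed in either direction with TMM scaling, 7 lay above 0 and 5 below, with a median of 0.05, and 3 were higher in 3 of 3 mice. With scaling on the well-detected reference genes 12 of 12 lay above 0 (median 0.38), against 431 of 496, and 3 were called higher, Hdc (0.58, adjusted p = 0.0363) and Gata1 (0.70, adjusted p = 0.0141) among them. Fcer1a, whose product is the chain of the receptor that holds IgE, counted 30876, 33480 and 30406 in si12C and 28997, 32725 and 32453 in si12A+C (-0.01 ± 0.08). The groups overlapped, with no shared direction over the mice. Ms4a2, the beta chain, stood at 0.04 ± 0.11, Kit at -0.20 ± 0.14, the proteases Cma1, Tpsb2 and Cpa3 at -0.05 ± 0.08, -0.00 ± 0.18 and -0.29 ± 0.12, the transcription factor Gata2 at 0.06 ± 0.12, and Hdc, the enzyme that makes histamine, at 0.25 ± 0.12. Gata1, another transcription factor of the lineage, had the highest value of the list with TMM scaling (0.38 ± 0.15, adjusted p = 0.189). Cpa3 was lower in mice 1 and 2 and higher in mouse 3. The 12 genes of signalling below the IgE receptor had 0 calls and a median of 0.05, and 1 call with scaling on the well-detected reference genes.

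Markers of other cells that such cultures could hold were low. Of 17 macrophage and monocyte markers 5 were tested, 0 were called, and their summed scaled count was 204 to 302 in si12C and 216 to 279 in si12A+C. Cd68 was higher and Cx3cr1 lower in 3 of 3 mice (0.47 ± 0.18 and -0.45 ± 0.19, neither called), while the defining markers Csf1r and C1qa did not pass the background filter. Of the neutrophil, eosinophil, dendritic cell and lymphocyte markers 3, 2, 1 and 3 were tested and 0 called, with summed counts of at most 85.5, 238, 23.3 and 124 in any of the 6 samples. Other lists were also without calls with TMM scaling: cytokine receptors (18 tested, median 0.00), chemokine receptors (8, median -0.06), survival and apoptosis (17, median -0.01), interferon response (8, median -0.22), MHC genes (12, median -0.20), eicosanoid genes (10, median -0.12), lipid metabolism (12, median -0.09) and Toll-like receptors (5, median -0.09). With scaling on the well-detected reference genes 4 survival and apoptosis genes, 1 cytokine receptor, 1 eicosanoid gene, 1 lipid metabolism gene and 1 macrophage and monocyte marker were called higher, and 0 chemokine receptors, interferon response genes, MHC genes and Toll-like receptors. The lists of cytoskeleton genes (12, median -0.12) and of serpins, cathepsins and plasminogen activation (9, median -0.02) held Cnn2 and Tubb5, and Serpinb2, among the calls given above.

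Of the 20 reference genes of the panel, Tubb5 fell, 0 rose and 16 lay below 0, with a median of -0.12, and 7 were lower in 3 of 3 mice. Eef1g, a translation elongation factor, fell within the fold limit, from 1232, 1221 and 1005 to 764, 870 and 833 (-0.48 ± 0.11, adjusted p = 0.0275). Its groups did not overlap, nor did those of Ppia, cyclophilin A, at 5139, 7093 and 4805 against 4156, 4575 and 3936 (-0.41 ± 0.12, adjusted p = 0.0756). Tbp had the highest log2 fold change of the list (1.87 ± 1.12), from raw counts of 10, 1 and 1 in si12C and 1, 1 and 49 in si12A+C, so it is not measured reliably here. The 6 well-detected reference genes are Tubb5, Eef1g and Ppia, given here as lower, and Oaz1, Rpl19 and Sf3a3, at -0.12, -0.12 and -0.09, and all 6 set that scale. With it the median of all genes moved to 0.34. Of the reference genes themselves, 15 of 20 then lay above 0, and 0 were called. Under that scaling 10 of 10 STAT genes and 17 of 17 NF-κB genes lay above 0, and 6 of 8 cell cycle genes below. The median of every list other than the cell cycle genes lay above 0 with that scaling, so the negative medians given above for other lists turned under it. Relative to the median of all genes, the cell cycle list stood at -0.59 under both scalings and the NF-κB list at 0.18 and 0.17. A change of scale moves all genes by nearly the same amount, so these relative values could hardly differ. They are no separate check of the calls.

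Some genes lay just outside the calls. Adgre5, which encodes the adhesion receptor CD97, passed the adjusted p but not the fold, at 465, 382 and 420 in si12C and 592, 473 and 636 in si12A+C (0.42 ± 0.10, adjusted p = 0.0406). Sesn1, a stress-induced inhibitor of mTORC1, passed the fold but not the adjusted p, at 128, 57.0 and 99.8 against 175, 73.0 and 186 (0.59 ± 0.15, adjusted p = 0.055). Both were higher in every mouse. Batf, a transcription factor of the AP-1 family, Pros1, the anticoagulant protein S, and the chemokine Ccl24 were also higher in 3 of 3 mice, at 0.56 ± 0.16, 0.59 ± 0.19 and 0.58 ± 0.17. Tgm2, a transglutaminase, and Gusb, a lysosomal enzyme, were lower in 3 of 3, at -0.50 ± 0.14 and -0.58 ± 0.19.

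The Zc3h12a siRNAs were also given without the Zc3h12c siRNAs, and the 2 effects share no library. In si12A against siGLO 9 genes rose (1.81%) and 18 fell (3.63%). Over the 496 genes the log2 fold changes of the 2 comparisons correlated at r = 0.44 (Spearman 0.45), and over the 328 with a mean of at least 50 in either group of the si12A+C comparison at 0.59 (0.63). This is a description across genes, which are not independent replicates, and the 4 samples of a mouse enter both sides. Of the genes that rose, 4 did so in both, Btg2, Cnn2 and Stat5a among them, 66.7% of the 6 genes raised here and 44.4% of the 9 raised by si12A alone. 2810417H13Rik, Calr, Ccnb2, Top2a and Tspan8 fell in both, 55.6% of 9 and 27.8% of 18. For Tspan8 the samples read 63.3, 250 and 78.7 in siGLO and 18.5, 59.2 and 25.7 in si12A, a fall of 1.83 ± 0.18 beside that of 1.95 ± 0.18 in the presence of si12C. The si12A count of mouse 1 lay below the scaled background of that library, 19.6, so the sizes of both falls are uncertain. Calr fell by 0.61 ± 0.10 and 0.56 ± 0.10, and Btg2 rose by 0.94 ± 0.20 and 0.88 ± 0.20.

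The 6 genes called in si12A+C against si12C but not in si12A against siGLO had the same sign in both, as did 333 of all 496 genes (67.1%) and 74.7% of those with a mean of at least 50. Without si12C, Nfkbiz stood at 0.62 ± 0.19 (adjusted p = 0.0633), Pdzk1ip1 at 0.44 ± 0.14, Tyrobp at -0.45 ± 0.11, Tubb5 at -0.40 ± 0.15, Serpinb2 at -0.93 ± 0.27 and Ccl5 at -0.41 ± 0.18. The difference between both effects was tested directly, as an interaction in the same fit. It called 0 of 496 genes (0%), with a smallest adjusted p of 0.543 and 40 genes at an unadjusted p of at most 0.05, and DESeq2 and limma-trend called 0 as well. For the 15 called genes, the difference ranged from -0.37 ± 0.21 for Tubb5 to 0.39 ± 0.20 for Pdzk1ip1.

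The 3 smallest p-values of this difference belonged to Ier3, Dusp1 and Cldn1. Ier3 stood at 0.18 without si12C and -0.41 with it, a difference of -0.59 ± 0.16 (adjusted p = 0.543). In siGLO and si12A its counts were 4278, 5909 and 3840, and 4931, 6782 and 4216. All 3 si12A samples were above, and all 3 si12A+C samples below, the sample of the same mouse without the Zc3h12a siRNAs. Dusp1, a phosphatase of MAP kinases, counted 135, 272 and 89.2 in siGLO and 200, 570 and 138 in si12A, but 127, 352 and 102 in si12C and 151, 335 and 114 in si12A+C. It rose by 0.77 without si12C and stood at 0.10 with it, a difference of -0.66 ± 0.19. Tnf, one of the fixed cytokine genes and not among the 3 smallest p-values, rose by 0.72 without si12C. It stood at 0.24 with si12C, a difference of -0.49 ± 0.21. Cldn1, a tight junction gene, differed by 1.35 ± 0.41 at counts near background. None of these differences passed the adjustment.

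**Figure D4:**
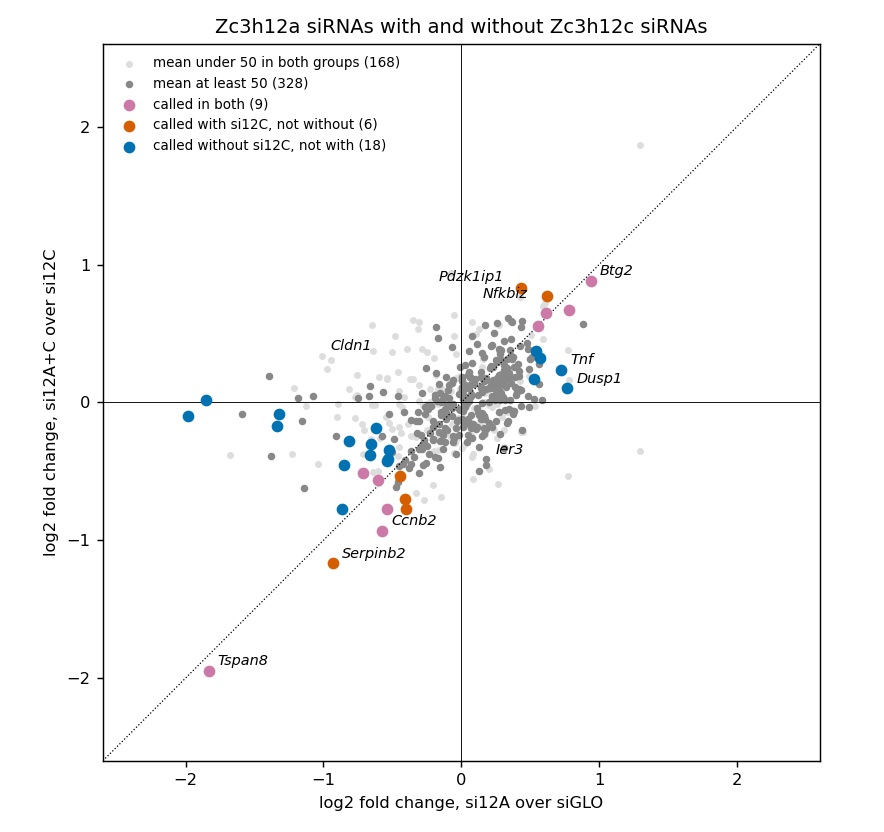
Log2 fold change of si12A+C over si12C (y axis) against that of si12A over siGLO (x axis) for 496 genes, with the dotted line of equal effects. The 9 genes called in both comparisons lie near this line, and Ier3, Dusp1 and Tnf lie below it.

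All 15 called genes kept their sign in every setting that tested them. Pdzk1ip1 was called in 18 of 21 other settings, Ccnb2 in 15 and Cnn2 in 14, whereas Top2a was called in 3, Serpinb2 in 5 of 19 and Ccl5 in 6. Between these, Calr was called in 12, 2810417H13Rik in 12 of 20, Btg2, Nfkbiz, Stat5a and Tubb5 in 11 each, and Tyrobp in 9.

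**Figure D5:**
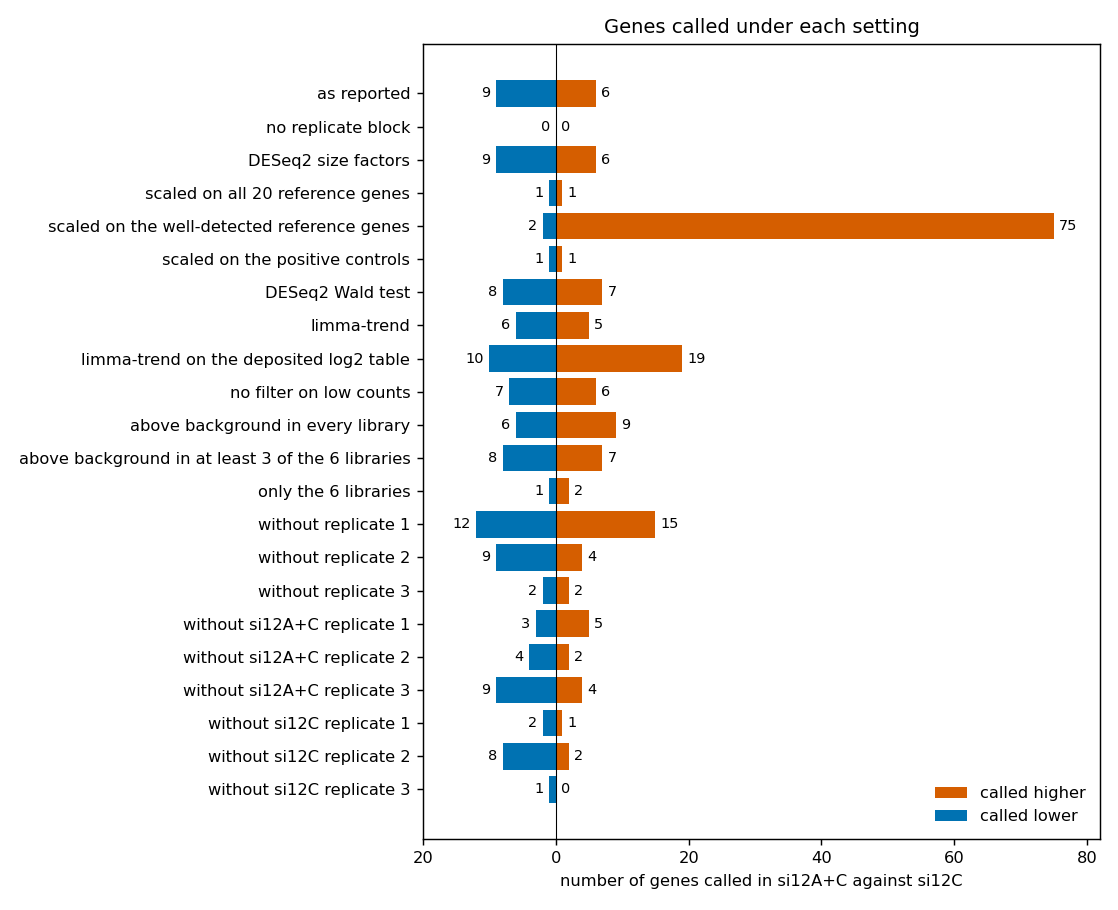
Number of genes called higher (orange, to the right) and lower (blue, to the left) in si12A+C against si12C under each setting, as bars from 0. The settings range from 0 calls without the replicate block to 75 higher and 2 lower with scaling on the well-detected reference genes.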

How the data were processed

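RNA (50 ng per sample) was hybridised to the nCounter Myeloid Innate Immunity Panel. The authors deposited raw probe counts for 754 genes, 8 negative and 6 positive control probes, which look neither scaled nor background-subtracted. A deposited second table holds log2 values of 325 genes, and its scaling is not given in the sources used here. In it the SD of mouse means averaged 0.011, against 0.42 in log2 CPM of the counts, so most of the difference between mice is absent from it, and only an alternative used it. The study's software was nSolver v4.0 and the Omics Playground platform.

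Counts were fitted with edgeR 4.0.16 (R 4.3.3; TMM scaling, quasi-likelihood F test, all 12 libraries, 1 coefficient per group, replicate number as a block), and p-values were adjusted over 496 genes by the Benjamini-Hochberg method. The block follows the 3 mice of the series design: deviations from the group means correlated at 0.14 to 0.86 over 18 pairs of libraries with the same number and at -0.74 to 0.63 over 36 other pairs. Between si12C and si12A+C they correlated at 0.15, 0.82 and 0.59 within mice 1, 2 and 3. The si12C library of mouse 1 correlated more, at 0.63, with the si12A+C library of mouse 3. Deviations of a group cancel out over its 3 samples, so the 2 ranges are not independent. SEs were taken as the size of the log2 fold change over the root of its F statistic. Scaled counts are counts over the effective library size times its mean. No replicate pair matched within sampling noise. The fit of si12A+C against si12C was tested on simulated data for 496 genes: it called 73 of 88 genes changed by 1 on the log2 scale, 110 of 112 changed by 2 and 3 of 296 unchanged. The simulation changed 200 genes, far more than were called in the data, and none by less than 1. Most called genes changed by less than 1, so how often such changes are found was not tested. P-values set the size of a difference between groups against how much such differences varied over 3 mice after the block. This spread was estimated from all 12 libraries. The p-values do not measure the spread between mice, and the number of counts limits low genes. The block, the lists of genes and the rule for naming genes (all called genes, those just outside, fixed cytokine and mast cell genes, up to 4 per list) were chosen with earlier results of these data known. Alternatives used DESeq2 1.42.0, limma 3.58.1, other scalings and filters, and libraries left out. Sequences came from RefSeq (GRCm38.p6) and the siRNA list of the study. A few genes, 1 of them called, enter the counts but are not reported by name here.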

Additional observations from a re-analysis of the deposited data

How the results depend on the processing

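With 6 genes called higher and 9 lower as reported, the counts stayed within 1.5 times of these with DESeq2's size factors, DESeq2's Wald test, limma-trend and the 3 other filters on low counts, and without the fold minimum. Without the replicate block 0 and 0 genes were called (15 at an unadjusted p of at most 0.05), with only the 6 libraries in the fit 2 and 1, with scaling on all 20 reference genes or on the positive controls 1 and 1, and with scaling on the 6 well-detected reference genes 75 and 2. The deposited log2 table gave 19 and 10, and unadjusted p-values with the fold minimum gave 20 and 16. Without replicate 1, 2 or 3 the counts were 15 and 12, 4 and 9, and 2 and 2. Without the si12A+C library of mouse 1, 2 or 3 they were 5 and 3, 2 and 4, and 4 and 9, and without that of si12C 1 and 2, 2 and 8, and 0 and 1. The interaction had 0 calls as reported, 2 without replicate 1 (Rasal1 and Sap130, the latter at 1 count in several libraries), 0 without replicate 2 or 3, and 30 with unadjusted p-values. The causes were not tested, beyond fewer samples in the fits that leave some out. No called gene reversed in any setting. Among 2247 pairs of a named gene and a setting, 107 changed sign with no call on either side, 25 of them under the well-detected reference genes. All 20 reference genes as the scale moved the median of all genes to 0.16. Genes near the background, such as Serpinb2, are limited by depth.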
